A study of Mus musculus with 9 samples.

Results

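Transcripts that hepatocytes make for export or for metabolism were followed in RNA from CD11b+ cells of injured mouse liver. They are a list of gene symbols: 19 plasma proteins and apolipoproteins, 7 acute-phase proteins and 9 enzymes of drug, nitrogen and amino acid metabolism, 35 of the 45777 genes in the tables. All 35 were found by gene ID, and 30 passed the filter on low values and were tested. Bulk RNA sequencing covered 9 samples in 3 groups of 3, and every mouse had received acetaminophen (APAP) into the peritoneum, which causes acute liver failure. The control group, labelled APAP, received PBS and is called PBS here. The group labelled APAP+HEKSIRP-EV received SIRP-EV made by the human embryonic kidney line HEK (HEK-EV), and the group labelled APAP+SIRP-EV received SIRP-EV derived from MSC (MSC-EV). Vesicles (EV) went into a vein 8 h after APAP and livers were taken 48 h after APAP. The labels expand neither SIRP nor MSC, and strain, age, sex and pooling are not given in the sources used here. There was no group without APAP and no group that received vesicles without SIRP, so every difference is between injured livers. The labels do not say that replicates were separate animals, so p-values measure only the spread between these samples, which may be technical.

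Hepatocytes make most plasma proteins: albumin and other carriers, apolipoproteins, protease inhibitors and clotting factors. In inflammation, interleukin 6 and interleukin 1 raise the acute-phase group (serum amyloid A, fibrinogen, orosomucoid, hemopexin) through STAT3 and C/EBP factors. Hepatocytes also oxidise drugs with cytochrome P450 enzymes. Cyp2e1, the main enzyme that turns acetaminophen into its reactive product, sits with Cyp1a2 in hepatocytes around the central vein, where the injury falls. A CD11b+ isolate is meant to hold monocytes, macrophages and neutrophils, which do not make most of these proteins.

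The promoters of 4 of these genes are shown because they represent the classes compared below: Alb and Ahsg for plasma proteins with a near-constant ratio to one another, Fgb for the fibrinogens, and Cyp2e1 for the metabolic enzymes. Each line holds the 100 bases before the start site, 5′ to 3′ on the gene's strand, from RefSeq on GRCm38.p6. Capitals mark matches to 2 motifs: the C/EBP motif TTGCNNAA, searched on both strands, and the TATA box TATAAA, searched on the gene's strand. None of these matches overlaps another one.
Alb, chr5:90460770-90460869, plus strand: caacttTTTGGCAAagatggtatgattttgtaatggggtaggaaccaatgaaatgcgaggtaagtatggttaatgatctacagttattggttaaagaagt
Ahsg, chr16:22891915-22892014, plus strand: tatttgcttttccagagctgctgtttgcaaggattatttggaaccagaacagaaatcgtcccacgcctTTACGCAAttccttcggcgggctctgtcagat
Fgb, chr3:83049864-83049963, minus strand: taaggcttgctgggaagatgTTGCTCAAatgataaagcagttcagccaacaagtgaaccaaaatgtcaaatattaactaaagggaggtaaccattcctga
Cyp2e1, chr7:140763719-140763818, plus strand: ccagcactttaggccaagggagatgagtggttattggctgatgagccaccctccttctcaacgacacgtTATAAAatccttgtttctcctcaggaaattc

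A promoter was found in the RefSeq table for 27 of the 35 genes. In the 250 bases before the start site, the C/EBP motif was in 11 of the 27 (40.7%), against 10.8% of all 27025 genes in the table, and the TATA box in 8 (29.6%), against 8.94%. By class, the C/EBP motif was in 6 of 14 plasma protein genes, 5 of 6 acute-phase genes (Fga, Fgb, Hpx, Saa1 and Saa2) and 0 of 7 metabolic genes. The TATA box was in 5, 0 and 3 genes of these classes, in the same order. A match describes letters in a window, not a bound site.

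The sequenced RNA was myeloid by its markers, and the hepatocyte transcripts summed to a low level beside the summed markers. Itgam, which encodes CD11b, lay between 196 and 434 TPM (the deposited level, already corrected for transcript length) in the 9 samples, and Ptprc, which encodes CD45, between 418 and 669 TPM. Itgam was lower in MSC-EV than in HEK-EV (log2 fold change -0.70, adjusted p = 0.026) and had -0.53 against PBS (adjusted p = 0.055). Ptprc was lower in MSC-EV than in both PBS (-0.46, adjusted p = 0.027) and HEK-EV (-0.53, adjusted p = 0.021). Of the 15 myeloid markers listed, 0 were higher and 2 lower in MSC-EV than in PBS, where 1.86% of all genes tested were higher and 3.25% lower. Against HEK-EV, 1 was higher and 2 lower, where 1.51% of all genes tested were higher and 4.4% lower. Their part in the results below was not tested. Adjusted p here and below is from limma with Benjamini-Hochberg adjustment over the 13820 genes tested, on log2(TPM + 1). The 15 myeloid markers summed to between 27250 and 36127 TPM in a sample, and the 35 hepatocyte transcripts to between 613 and 1274 TPM. Lyz2 alone gave 13329 to 18741 TPM of the marker sum. Single transcripts were not all low beside single markers. In MSC-EV, Alb was at 257 to 329 TPM and Trf at 265 to 298 TPM, where Itgam was at 196 to 255 TPM. Relative depth, taken as coverage divided by FPKM, was 5.28 to 6.32 in PBS, 6.25 to 6.47 in HEK-EV and 6.59 to 6.85 in MSC-EV. The mitochondrial share of TPM was 5.44% to 6.48% outside the MSC-EV group and 7.55% to 7.90% within it. Without read counts in the files, depth in reads is unknown and values carry no counting interval. In bulk RNA, fewer cells of a type and less RNA per cell cannot be told apart.

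Pancreatic acinar transcripts set some libraries apart. The 25 acinar markers summed to 46.7, 1408 and 15.4 TPM in HEK-EV replicates 1 to 3, to 183, 14.0 and 3947 TPM in MSC-EV replicates 1 to 3, and to 13.7 to 15.4 TPM in the PBS samples. Cela1 alone gave 11.2 to 13.6 TPM of the PBS sums, 14.0 TPM in HEK-EV replicate 3 and 12.5 TPM in MSC-EV replicate 2. HEK-EV replicates 1 and 2 and MSC-EV replicates 1 and 3 were therefore treated as one side of a split and the other 5 as the other side, and values within a side are given beside each comparison.

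Most hepatocyte transcripts were higher in the MSC-EV samples than in PBS, and few of these differences passed the test. Of the 30 tested, 5 rose and 0 fell, where 1.86% of all genes tested rose and 3.25% fell. Those 5 were the plasma proteins Ambp, Serpinc1, Apoa1 and Trf, and the enzyme Cyp2e1. The fold change was positive for 28 of the 30, with a median of 0.67 against 0.01 over all genes tested, and the exceptions were Apoc1 and Ass1. In 20 of the 30, all 3 MSC-EV samples lay above all 3 PBS samples, which held for 11.2% of all genes tested. In limma, 16 of the 30 had an unadjusted p under 0.05, beside 23% of all genes tested. By class, 4 of 19 plasma protein transcripts rose (median 0.72), 0 of 5 acute-phase transcripts passed (median 0.63, all 5 positive) and 1 of 6 metabolic transcripts rose (median 0.55). Adding 1 to TPM shrinks fold changes at low TPM, where all tested enzymes but Ass1 lay, so class medians are not directly comparable. The count rested on single libraries: it was 0 without PBS replicate 2, PBS replicate 3 or MSC-EV replicate 1, 1 without MSC-EV replicate 2, 2 without HEK-EV replicate 2, and 3 without MSC-EV replicate 3. Leaving out HEK-EV replicate 1 raised it to 9, and leaving out HEK-EV replicate 3 raised it to 8. A term for the acinar split left 1, and depth as a covariate left 2. Among the samples low in acinar markers, MSC-EV replicate 2 was above the PBS mean for 27 of the 30, with a median difference of 0.89, and the other side held no PBS sample.

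HEK-EV samples did not show this pattern. Against PBS, 0 of the 30 passed in limma, where 0% of all genes tested passed. At an unadjusted p under 0.05 there was 1 (Hpd), and 495 of all genes tested (3.58%). The fold change was positive for 10 and negative for 20, with a median of -0.10. All HEK-EV samples lay above all PBS samples for 1 gene (Cyp2e1), which held for 5.51% of all genes tested, and below them for 1 gene (Hpd), which held for 2.29%. Leaving out HEK-EV replicate 1 turned the median to 0.07, and a term for the acinar split turned it to 0.17. HEK-EV replicate 3, the sample of its group low in acinar markers, lay above the PBS mean for 25 of the 30, with a median of 0.28.

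MSC-EV set against HEK-EV gave the larger count. Of the 30, 12 were higher in MSC-EV and 0 lower, where 1.51% of all genes tested were higher and 4.4% lower. They were Alb, Apoa1, Apoh, Trf, Ahsg, Serpina1a, Serpina1b, Serpinc1, Ambp and Gc among plasma proteins, Hpx among acute-phase proteins and Hpd among enzymes. The fold change was positive for 29 of the 30, with a median of 0.82 against -0.02 over all genes tested, and Ass1 was the exception. In 16 of the 30 the groups did not overlap, which held for 12.6% of all genes tested. In limma, 17 of the 30 had an unadjusted p under 0.05, beside 3217 of the 13820 genes tested. Leaving out HEK-EV replicate 1 or 2, or MSC-EV replicate 1 or 2, took the count to 0, and leaving out replicate 3 of either group took it to 7. Depth as a covariate left 7, and a term for the acinar split gave 13. Among the samples high in acinar markers, the 2 MSC-EV samples had a higher mean than the 2 HEK-EV samples for 29 of the 30 (median 0.79), and on the other side MSC-EV replicate 2 was above HEK-EV replicate 3 for 24 (median 0.64). The comparisons share samples, so their counts are not independent.

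**Figure D1:**
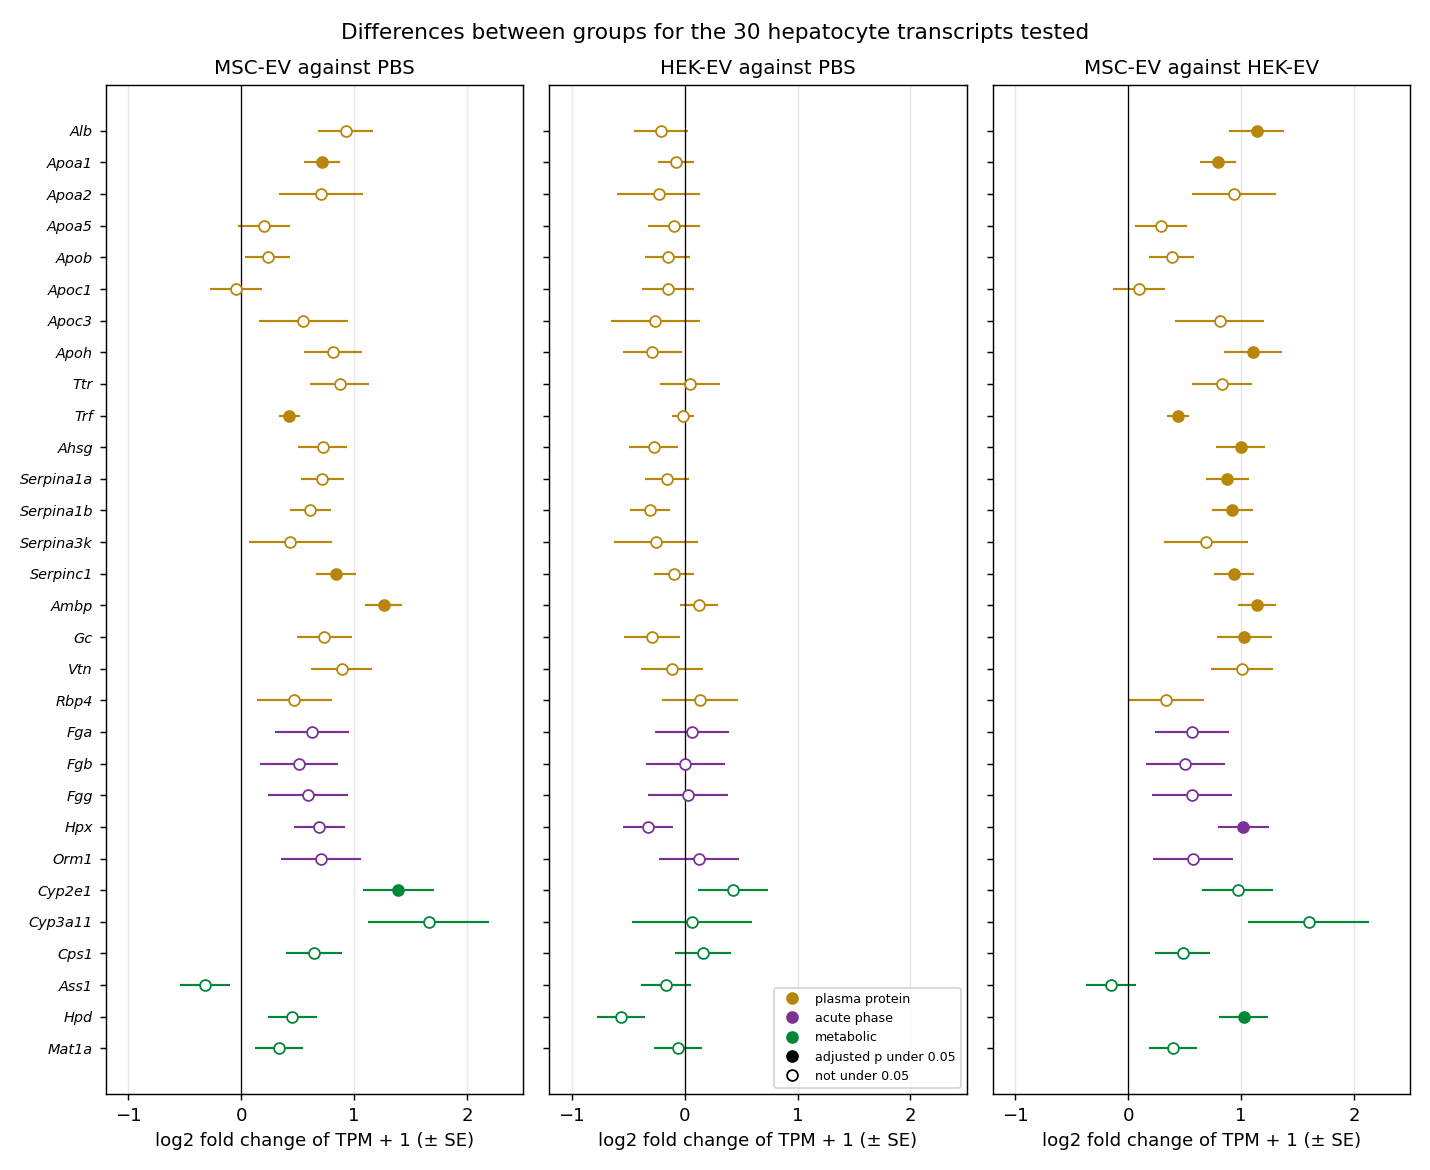
Log2 fold change of TPM + 1 with its standard error (SE) for the 30 hepatocyte transcripts tested, in the 3 comparisons. Filled points have an adjusted p under 0.05, and colours give the class: 5 points are filled in MSC-EV against PBS, 0 in HEK-EV against PBS and 12 in MSC-EV against HEK-EV.

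Among plasma carriers, albumin and Ambp stood furthest above the other groups in the MSC-EV samples. Alb, the main carrier and osmotic protein of plasma (gene ID 11657, chr5:90460870-90476602), was at 135, 135 and 185 TPM in PBS, 89.9, 126 and 193 TPM in HEK-EV and 278, 329 and 257 TPM in MSC-EV. All 3 MSC-EV values lay above all other samples, while PBS and HEK-EV overlapped. The difference passed against HEK-EV (log2 fold change 1.14, SE 0.24, adjusted p = 0.032) and fell short against PBS (0.93, SE 0.24, adjusted p = 0.059). Ambp encodes the precursor of alpha-1-microglobulin, a heme-binding and radical-scavenging protein, and of the inhibitor bikunin (gene ID 11699, chr4:63143275-63154172). It was at 9.03, 9.49 and 9.64 TPM in PBS, 7.72, 10.4 and 13.5 TPM in HEK-EV and 22.4, 27.8 and 22 TPM in MSC-EV. The PBS values were close together and every MSC-EV value stood clear of both other groups. Ambp had the smallest adjusted p of the 30 in both comparisons, 1.26 (SE 0.17, adjusted p = 0.012) against PBS and 1.14 (SE 0.17, adjusted p = 0.021) against HEK-EV. It kept its call against PBS in 15 of 19 alternative fits (adjusted p from 0.0057 to 0.064), and the call ended without PBS replicate 2, PBS replicate 3 or MSC-EV replicate 1, and without the pair of samples highest in acinar markers (HEK-EV replicate 2 and MSC-EV replicate 3).

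Trf, the iron carrier transferrin (gene ID 22041, chr9:103208876-103230286), was above Alb in every sample except MSC-EV replicate 2, and its fold changes were smaller than those of Alb. It was at 237, 198 and 202 TPM in PBS, 190, 234 and 207 TPM in HEK-EV and 298, 265 and 293 TPM in MSC-EV. The MSC-EV samples were again highest without overlap (0.43, SE 0.10, adjusted p = 0.039 against PBS, and 0.44, adjusted p = 0.032 against HEK-EV). Of 19 alternative fits, 8 kept the call against PBS (adjusted p 0.0099 to 0.18). Trf was at 80.4% to 211% of the Alb level in the same sample, and which cells its RNA came from was not tested. Of the 50-base stretches of the longest coding GENCODE transcript of Trf, 79.8% also occur in Gm20425. That predicted gene has no level in these data, and how reads from the shared stretches were assigned was not tested. Gc, the vitamin D-binding protein that also clears actin released by dying cells, was at 13.3, 11.8 and 15.1 TPM in PBS, 7.07, 10.5 and 16.5 TPM in HEK-EV and 22.9, 27.3 and 19.3 TPM in MSC-EV. It passed against HEK-EV (1.03, SE 0.25, adjusted p = 0.043) and had 0.74 against PBS (adjusted p = 0.11). Ttr, which carries thyroid hormone and the retinol-binding protein, averaged 9.47 ± 2.65 (SD, n = 3) TPM in PBS, 9.66 ± 1.63 in HEK-EV and 18.7 ± 7.94 in MSC-EV, without overlap but past neither threshold (adjusted p = 0.087 and 0.097). Rbp4, the retinol-binding protein itself, overlapped between all groups, and its MSC-EV mean of 6.97 TPM rested on replicate 2 at 11.4 TPM beside 5.04 and 4.47 TPM.

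The apolipoproteins divided. Apoa1, the main protein of HDL (gene ID 11806, chr9:46228630-46230469), was at 27.6, 20.1 and 26.5 TPM in PBS, 18.9, 23.6 and 27.8 TPM in HEK-EV and 37.8, 47.1 and 38.3 TPM in MSC-EV. Its MSC-EV values did not overlap the others, and it rose in MSC-EV (0.72, SE 0.16, adjusted p = 0.038 against PBS, and 0.79, adjusted p = 0.027 against HEK-EV). Against PBS it passed in 7 of 19 alternative fits (adjusted p 0.021 to 0.15). Apoh, beta-2-glycoprotein I, averaged 4.43 ± 1.04, 3.66 ± 1.96 and 8.46 ± 0.322 TPM (SD, n = 3) in PBS, HEK-EV and MSC-EV and passed against HEK-EV (1.10, adjusted p = 0.041). Apoa2 and Apoc3, small HDL and triglyceride-rich lipoprotein proteins, were raised mainly in MSC-EV replicate 2, where Apoa2 stood at 31.6 TPM beside 13.5 and 9.58 TPM and Apoc3 at 9.19 TPM beside 4.94 and 3.46 TPM. Apob, the structural protein of VLDL and LDL, and Apoa5, an activator of triglyceride hydrolysis, stayed below 2 TPM in every sample and overlapped. Apoc1 went its own way. It lies next to Apoe and, as background, is also expressed by macrophages. It was at 276, 210 and 176 TPM in PBS, 144, 199 and 263 TPM in HEK-EV and 218, 173 and 246 TPM in MSC-EV, a full overlap (-0.05, SE 0.23, adjusted p = 0.93 against PBS).

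Most protease inhibitors and related proteins were highest in MSC-EV. Serpinc1, antithrombin (gene ID 11905, chr1:160978606-161003015), was at 2.01, 2.44 and 2.89 TPM in PBS, 1.64, 2.28 and 2.85 TPM in HEK-EV and 4.83, 6.42 and 4.40 TPM in MSC-EV. The MSC-EV samples did not overlap the others, and both differences passed (0.84, SE 0.18, adjusted p = 0.033 against PBS, and 0.94, adjusted p = 0.025 against HEK-EV). The call against PBS was kept in 8 of 18 alternative fits (adjusted p 0.036 to 0.22). Serpina1a and Serpina1b, the mouse alpha-1-antitrypsins that restrain neutrophil elastase, passed against HEK-EV (0.88 and 0.92, adjusted p = 0.034 and 0.026). Serpina1b was at 16.1, 15.4 and 19.1 TPM in PBS, 9.36, 14.6 and 17.4 TPM in HEK-EV and 26.5, 26.3 and 25.8 TPM in MSC-EV, where the replicates lay closest together. Between 35.8% (Serpina1b) and 67.4% (Serpina1a) of their 50-base stretches occur in relatives, mainly Serpina1c and Serpina1d, so reads may be split within this family. Ahsg, the mineral-binding fetuin-A, averaged 31.0 ± 4.14, 26.5 ± 10.1 and 51.6 ± 3.26 TPM (SD, n = 3) and passed against HEK-EV (0.996, SE 0.22, adjusted p = 0.033). Vtn, the adhesion protein vitronectin, averaged 4.48 ± 1.28, 4.22 ± 1.93 and 9.14 ± 2 TPM without overlap of MSC-EV, past neither threshold (adjusted p = 0.088 and 0.061). Serpina3k, a serpin that binds tissue kallikrein, overlapped: HEK-EV replicate 3 at 34.8 TPM was as high as MSC-EV replicate 2 at 34.1 TPM.

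**Figure D2:**
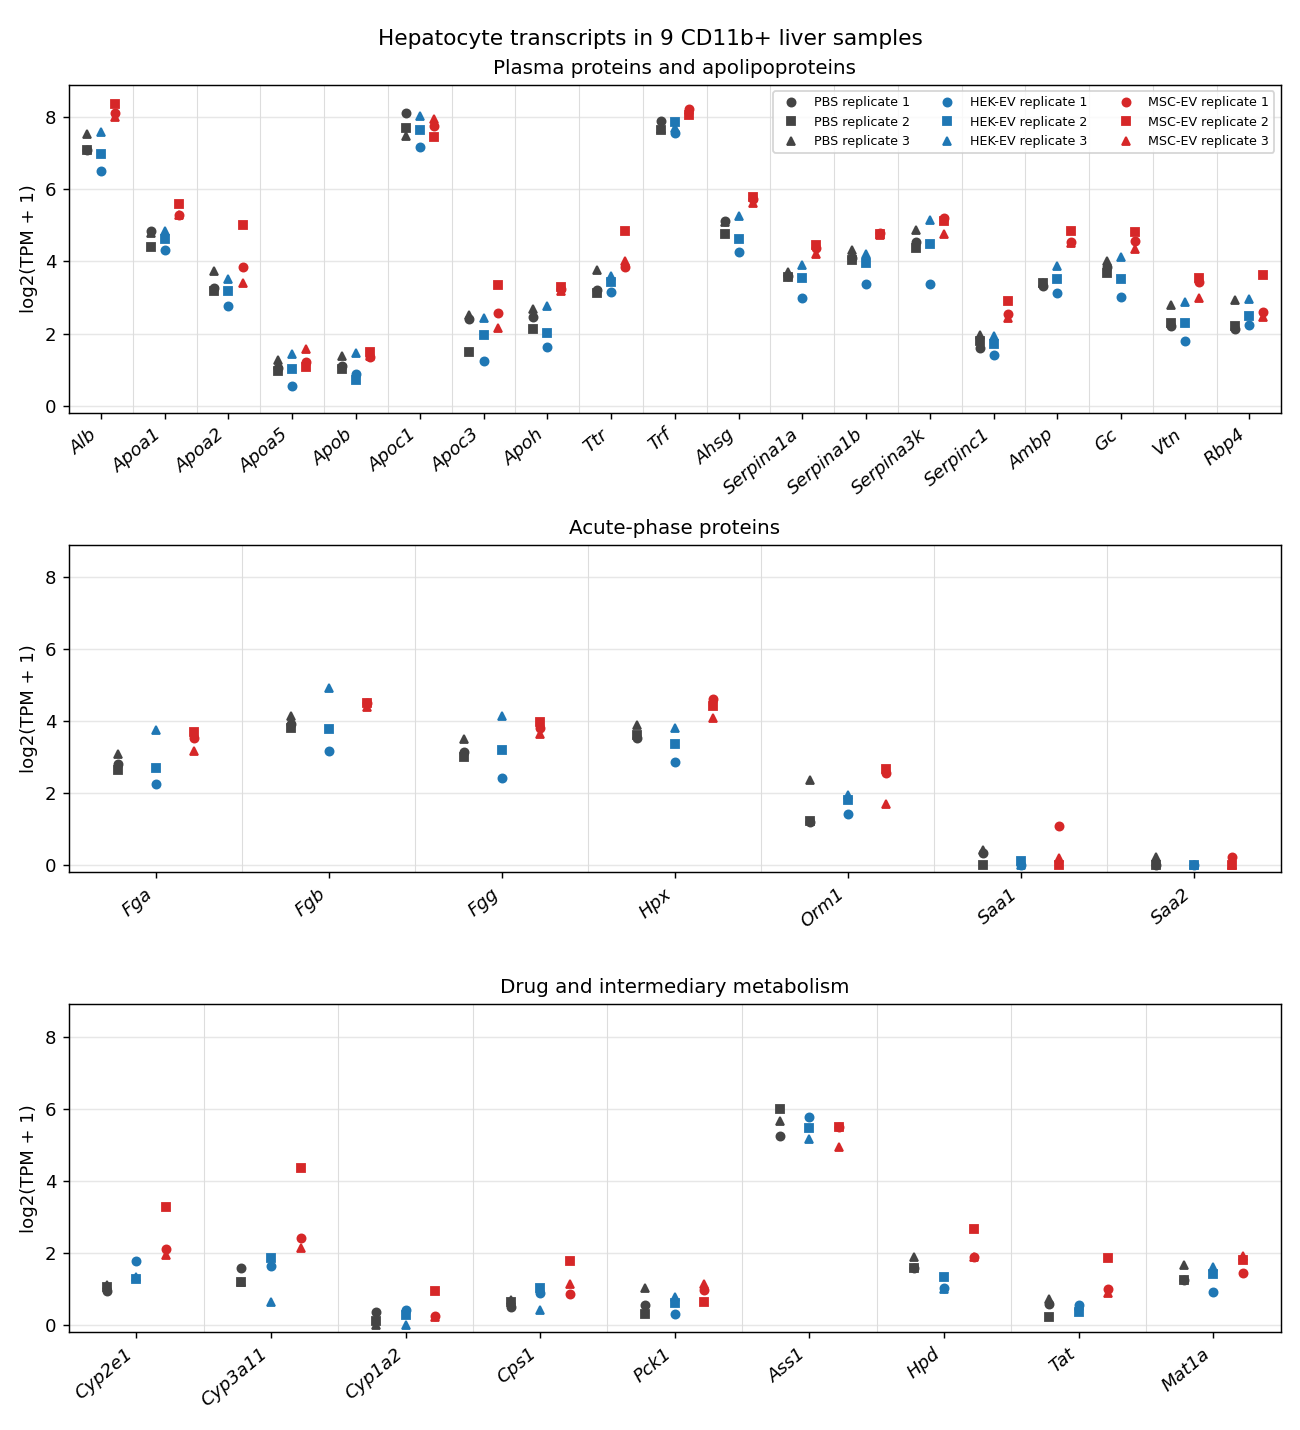
Level of each of the 35 transcripts as log2(TPM + 1) in the 9 samples, by class, with colour for the group and marker shape for the replicate. Most plasma protein transcripts show all 3 MSC-EV samples above the rest, Apoc1 and Ass1 do not, and Saa1 and Saa2 stay at or below 1.14 TPM.

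None of the 5 acute-phase transcripts tested passed against PBS in limma, and the 3 fibrinogens were highest in HEK-EV replicate 3. Fgb, the fibrinogen beta chain (gene ID 110135, chr3:83042246-83049863), was at 14.3, 13.0 and 16.5 TPM in PBS, 7.97, 12.8 and 29.4 TPM in HEK-EV and 21.7, 21.7 and 19.96 TPM in MSC-EV. HEK-EV spanned the lowest and the highest of the 9 values, and the MSC-EV samples lay between. The difference from PBS did not pass (0.51, SE 0.35, adjusted p = 0.43). Fga and Fgg, the alpha and gamma chains, had the same shape, with HEK-EV replicate 3 highest of the 9 at 12.6 and 16.7 TPM and HEK-EV replicate 1 lowest at 3.76 and 4.33 TPM. Hpx, hemopexin, which binds free heme, was highest in MSC-EV. It was at 10.5, 11.3 and 13.9 TPM in PBS, 6.33, 9.37 and 13.1 TPM in HEK-EV and 23.5, 20.3 and 16.1 TPM in MSC-EV, without overlap, and passed against HEK-EV (1.02, SE 0.23, adjusted p = 0.034). Orm1, orosomucoid, overlapped between all groups at 1.28 to 5.35 TPM, and 20.4% of its 50-base stretches occur in Orm2.

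Saa1 and Saa2, serum amyloid A proteins that are the main inducible acute-phase proteins of mouse liver, were almost undetected and did not pass the filter. Saa1 was listed at 0.261, 0 and 0.354 TPM in PBS, 0, 0.0755 and 0 TPM in HEK-EV and 1.14, 0 and 0.149 TPM in MSC-EV, and Saa2 was listed at 0 in 7 of the 9 samples. Saa3, the form that macrophages make, lay between 22.1 and 107 TPM. Saa1 shares 14.8% of its 50-base stretches with relatives, mainly Saa2.

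A further 18 acute-phase genes were divided as well. Of the 15 tested, 2 rose against PBS and 0 fell, and over all genes tested 1.86% rose and 3.25% fell. These were Crp, C-reactive protein, at 1.51 to 1.69 TPM in PBS and 4.42 to 4.86 TPM in MSC-EV (1.13, SE 0.15, adjusted p = 0.012), and Cp, the copper carrier ceruloplasmin, at 6.63 to 9.27 and 14.9 to 18.8 TPM (1.01, SE 0.20, adjusted p = 0.030). Haptoglobin (Hp), chosen after its values were seen, is a hemoglobin scavenger that neutrophils also store. It lay the other way, at 288 to 538 TPM in PBS, 416 to 555 TPM in HEK-EV and 221 to 254 TPM in MSC-EV, and was lower in MSC-EV than in HEK-EV (-0.99, SE 0.20, adjusted p = 0.028).

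Metabolic enzymes other than Ass1 averaged below 5 TPM over the 9 samples. Cyp2e1 (gene ID 13106, chr7:140763819-140774990) was at 0.929, 1.07 and 1.17 TPM in PBS, 2.44, 1.43 and 1.51 TPM in HEK-EV and 3.28, 8.60 and 2.81 TPM in MSC-EV. The groups did not overlap, with PBS lowest and MSC-EV highest, and MSC-EV replicate 2 stood apart within its group. It passed against PBS (1.39, SE 0.31, adjusted p = 0.039) but in only 5 of 18 alternative fits (adjusted p from 0.031 to 0.19), and not against HEK-EV (0.97, adjusted p = 0.098). Of the 50-base stretches of Cyp2e1, 4.26% occur in Fcho2, which lay between 56.9 and 73.7 TPM. Cyp3a11, the mouse counterpart of the broad drug oxidase CYP3A4, was at 1.96, 1.29 and 1.27 TPM in PBS, 2.13, 2.62 and 0.548 TPM in HEK-EV and 4.34, 19.6 and 3.42 TPM in MSC-EV. Its fold change was the largest of the 30 (1.66, SE 0.53) with an adjusted p of 0.10, and MSC-EV replicate 2 held more than the rest of its group together. Of the 50-base stretches of Cyp3a11, 14.8% occur in other genes. Cyp1a2, which oxidises caffeine and also acetaminophen, stayed at or below 0.925 TPM and was not tested.

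The enzymes of nitrogen and amino acid metabolism were mixed. Cps1, which starts the urea cycle, was below 1 TPM in the PBS samples and at 0.798, 2.42 and 1.21 TPM in MSC-EV (0.65, SE 0.24, adjusted p = 0.15). Ass1, argininosuccinate synthase of the same cycle (gene ID 11898, chr2:31470270-31520670), which activated macrophages also use to renew arginine, was at 37.0, 62.4 and 49.3 TPM in PBS, 53.4, 42.8 and 35 TPM in HEK-EV and 44.3, 43.8 and 29.6 TPM in MSC-EV. It overlapped throughout and its fold change was negative in all 3 comparisons (-0.32, SE 0.22, adjusted p = 0.43 against PBS). Of the 50-base stretches of Ass1, 55.3% occur in Gm5424, which lay between 0.705 and 1.74 TPM. Hpd, an enzyme of tyrosine breakdown (gene ID 15445, chr5:123171807-123182723), was at 2.01, 2.01 and 2.66 TPM in PBS, 1.05, 1.49 and 1.003 TPM in HEK-EV and 2.67, 5.30 and 2.70 TPM in MSC-EV. HEK-EV was lowest without overlap, and Hpd was higher in MSC-EV than in HEK-EV (1.02, SE 0.21, adjusted p = 0.030). Mat1a, which makes S-adenosylmethionine, overlapped at 0.897 to 2.77 TPM. Tat, which starts tyrosine breakdown, and Pck1, the gluconeogenic enzyme, did not pass the filter. Tat was at 0.157 to 0.644 TPM in PBS and HEK-EV samples and at 0.977, 2.64 and 0.842 TPM in MSC-EV, and Pck1 was at 0.225 to 1.21 TPM with overlap.

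Cyp2e1, Cyp3a11 and Cyp1a2 were all highest in MSC-EV replicate 2. Of the 54 other metabolic genes listed, 25 did not pass the filter, and of the 29 tested 3 rose against PBS and 0 fell, where 1.86% of all genes tested rose and 3.25% fell. Among them were Ces1d, a carboxylesterase (1.32, SE 0.19, adjusted p = 0.015), and Aldh1a1, retinal dehydrogenase (0.70, SE 0.16, adjusted p = 0.042). Cyp2c29, chosen after its values were seen, was at 4.81 TPM in MSC-EV replicate 2 and at most 0.758 TPM in the other 8 samples. Cyp27a1, at 58.6 to 83.7 TPM and highest in PBS replicate 2, and Cyp4a14, highest in HEK-EV replicate 3 at 1.52 TPM, did not share this order. Of the genes listed as pericentral, 2 of the 10 tested rose against PBS (Cyp2e1 and Aldh1a1), and of those listed as periportal 0 of 10 passed in limma. At an unadjusted p under 0.05 there were 7 of 10 pericentral and 2 of 10 periportal genes, where 23% of all genes tested had such a p. The difference between the zones was not tested.

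A near-constant ratio to albumin held within samples for many plasma protein transcripts. Alb ranged 3.66-fold over the 9 samples. Gc stayed between 7.52% and 9.88% of the Alb level in the same sample, with a coefficient of variation (CV) of 7.87%. Serpinc1 stayed between 1.47% and 1.95% (CV 9.62%), Vtn between 2.68% and 3.54% (CV 10.1%) and Serpina1a between 6.37% and 8.46% (CV 10.5%). Hpx (CV 11.2%), Ahsg (11.9%), Serpina1b (12.4%), Apoh (12.7%), Ambp (15.2%) and Apoa1 (18.0%) completed the 10 of 29 transcripts with a CV under 20%, a limit that 0.282% of all genes tested other than Alb met. Of these 10, 9 were plasma proteins and 1, Hpx, was an acute-phase protein. The ratio varied less than the TPM itself for 26 of the 29, and for 3.74% of all genes tested other than Alb. All of these values share a library and its Alb level, so they are descriptions without a test.

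The other transcripts left that ratio in particular samples or in a whole group. The fibrinogens were raised in HEK-EV replicate 3, where Fgb was 15.2% of Alb against 6.59% to 10.6% in the other 8 samples. Relative to Alb, all 3 fibrinogens were also lowest in MSC-EV without overlap. Fgb was at 6.59% to 7.80% in MSC-EV and at least 8.86% elsewhere. Fga was at 3.13% to 3.78% and at least 3.88%, and Fgg at 4.47% to 4.69% and at least 4.82%, in the same order. Apoc1 ranged from 52.5% to 204% of Alb and Trf from 80.4% to 211%. Ass1 ranged from 11.5% to 59.4%, and it was lowest in the MSC-EV samples, where Alb was highest. Among the transcripts tested, Cyp3a11 moved most, from 0.284% in HEK-EV replicate 3 to 5.94% in MSC-EV replicate 2, a 20.9-fold range. Cyp2e1 ranged from 0.631% to 2.71% and was at 0.631% to 0.786% with PBS, 0.780% to 2.71% with HEK-EV and 1.09% to 2.61% with MSC-EV, so that HEK-EV overlapped both other groups. The median CV was 19.5% for plasma proteins, 23.9% for acute-phase proteins and 55.6% for enzymes.

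**Figure D3:**
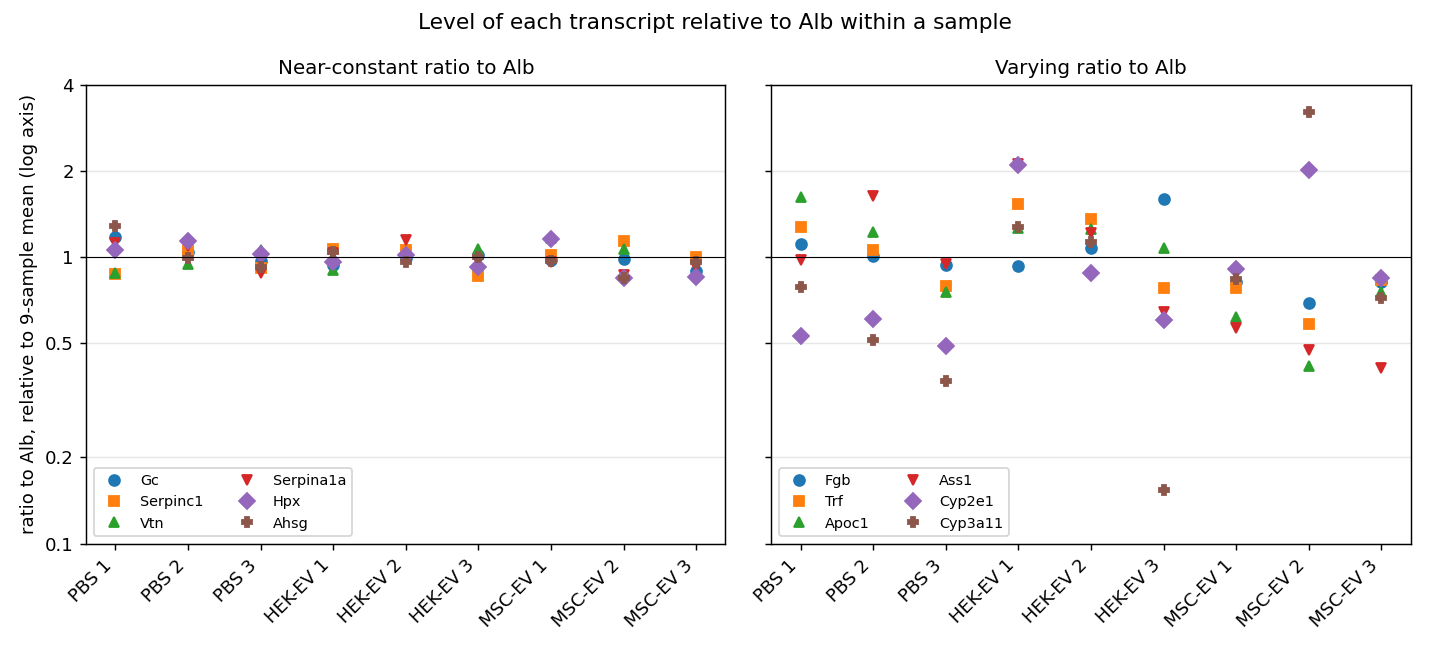
Level of each transcript relative to Alb in the same sample, divided by its mean over the 9 samples, on a log axis, with 1 marker shape per gene. Gc, Serpinc1, Vtn, Serpina1a, Hpx and Ahsg stay near 1 in every sample, while Cyp3a11 spans 20.9-fold and Ass1 5.15-fold.

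Samples of a group also kept an order. HEK-EV replicate 1 was the lowest of its group for 18 of the 19 plasma proteins and all 5 acute-phase proteins tested, and HEK-EV replicate 3 the highest for 18 and 5. Over all genes tested these samples were lowest for 40.6% and highest for 42.4%. Among the 6 enzymes tested the order was not kept: HEK-EV replicate 3 was lowest for 4 and highest for 1. MSC-EV replicate 2 was the highest of its group for 22 of the 30 transcripts (73.3%, against 24.7% of all genes tested) and the highest of all 9 samples for 19, as it was for 1337 of the 13820 genes tested.

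Each class was also summed within a sample. The 19 plasma protein transcripts summed to 818, 690 and 761 TPM in PBS, 528, 710 and 876 TPM in HEK-EV and 1075, 1114 and 1049 TPM in MSC-EV. The 7 acute-phase transcripts summed to 40.1, 37.9 and 53.0 TPM, 24.1, 38.4 and 74.7 TPM, and 75.0, 74.2 and 57.9 TPM in the same order. The 9 enzymes summed to 44.9 to 69.2 TPM in PBS, 41.6 to 61.8 TPM in HEK-EV and 44.8 to 86.3 TPM in MSC-EV, with overlap, and Ass1 was the largest part of that sum in every sample. MSC-EV was thus clear of both other groups for the plasma protein sum and for no other class. Alb, Trf and Apoc1 were the largest parts of the plasma protein sum in every sample, and Apoc1 itself overlapped between the groups.

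Markers of other cell types differed between the groups to unequal degrees. The 16 biliary markers summed to 21.4 to 28.1 TPM in PBS, 30.6 to 33.1 TPM in HEK-EV and 45.1 to 64.9 TPM in MSC-EV, and 8 of the 11 tested rose in MSC-EV against PBS, where 1.86% of all genes tested rose. The 12 endothelial markers summed to 762 to 839, 652 to 892 and 412 to 584 TPM in the same order, with 12 of 12 fold changes negative in MSC-EV against PBS and 1 (Fcgr2b) past the threshold, where 3.25% of all genes tested fell. In limma, 12 of these 12 had an unadjusted p under 0.05, beside 23% of all genes tested. The 7 Kupffer cell markers summed to 2676 to 3219, 1813 to 3772 and 1492 to 2626 TPM, with overlap between MSC-EV and HEK-EV, and 0 of 7 passed in limma against PBS, with 2 at an unadjusted p under 0.05, beside 23% of all genes tested. Hnf4a, a transcription factor that defines hepatocytes, was at 0.737, 0.874 and 0.698 TPM in MSC-EV, above all PBS and HEK-EV samples at 0.512 to 0.672 TPM. The regulators Foxa1, Foxa2, Nr1h4 and Prox1, chosen after their values were seen, were also highest in MSC-EV without overlap, at most 1.03 TPM in any sample. None of these 5 passed the filter, so they were not tested. Cebpa, which myeloid cells also express, lay between 104 and 212 TPM and was higher in MSC-EV than in HEK-EV (0.73, SE 0.17, adjusted p = 0.037). The part of other cell types, depth or the acinar libraries in the hepatocyte transcript differences was not tested.

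**Figure D4:**
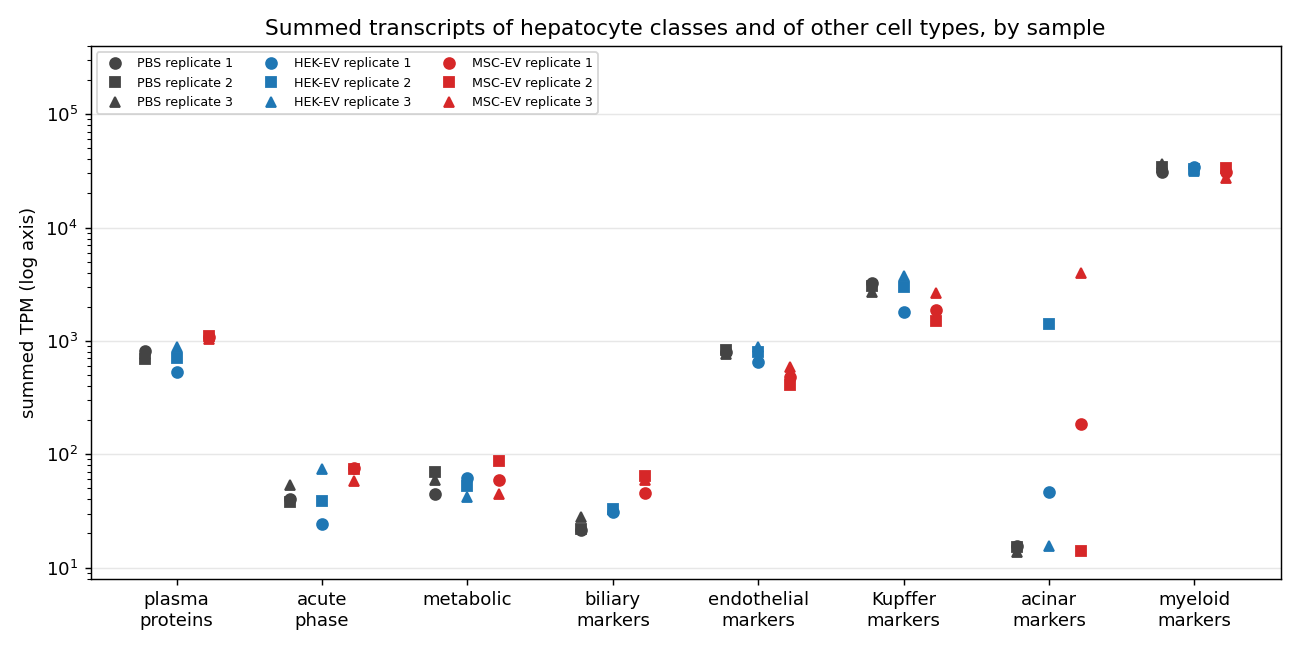
Summed TPM of the 3 hepatocyte transcript classes and of marker lists of other cell types in each sample, on a log axis, with colour for the group and shape for the replicate. The MSC-EV samples are highest for plasma proteins and biliary markers and lowest for endothelial markers, and acinar markers reach 3947 TPM in MSC-EV replicate 3.

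Of 39 further secreted proteins listed, 32 were tested, and 2 rose against PBS and 0 fell, beside the same 1.86% and 3.25% of all genes tested. F7, coagulation factor VII, was at 33.9, 22.4 and 22.3 TPM in PBS, 22.8, 24.7 and 28.1 TPM in HEK-EV and 53.9, 53.8 and 40.7 TPM in MSC-EV, clear of both groups (0.91, SE 0.17, adjusted p = 0.026). Hrg, histidine-rich glycoprotein, was at 0.862 to 1.996, 0.967 to 2.102 and 3.002 to 3.94 TPM (0.93, SE 0.21, adjusted p = 0.042). Of the 32, 28 had a positive fold change, with a median of 0.56 against 0.01 over all genes tested. The exceptions were Apoa4, Apoc2, F5 and F10. Against HEK-EV, 9 were higher and 1 lower, where 1.51% of all genes tested were higher and 4.4% lower. The lower one was F5 (-0.78, SE 0.14, adjusted p = 0.023). The list summed to 434 to 559 TPM in PBS, 460 to 486 TPM in HEK-EV and 436 to 574 TPM in MSC-EV, with overlap. Which cells the RNA of F7 and the other genes of this list came from was not tested.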

How the data were processed

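Per the labels' protocols, livers were dissociated, CD11b+ cells isolated, RNA extracted with Trizol and libraries made with the TruSeq Stranded mRNA kit. HISAT2 2.1.0, StringTie and the mm10 build are named in the submitters' processing notes, and use of strand in assigning reads is not given in the sources used here. Each deposited table held TPM, FPKM and coverage per gene, per the file headers. TPM as deposited by the authors were the values used, FPKM as deposited by the authors served as an alternative, and coverage as deposited by the authors, divided by FPKM, gave relative depth. Rows of a gene ID were summed, and 45679 of 45777 IDs (99.8%) had a symbol in RefSeq GRCm38.p6, with the same start and end for 96.3%.

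The 13820 genes that reached 1 TPM in 3 or more samples were tested on log2(TPM + 1) by limma 3.58.1 (R 4.3.3; eBayes with trend), using 1 model of all 9 samples without covariates. Tests were two-sided, with Benjamini-Hochberg adjustment over all genes tested and a threshold of 0.05. An exact permutation test of 3 against 3 cannot go below p = 0.1 and was not used. Python 3.11.15 with pandas 2.3.3 did the rest. Genes and lists were chosen with earlier results of these data known. All 35 genes are named, and from each other list up to 4 genes past the threshold against PBS. The 20% limit on the CV of a ratio to Alb was chosen after the data were seen. Shared 50-base stretches were counted over GENCODE transcripts, using the longest coding transcript of each of the 35 genes. Some listed genes and 1 planned motif are not reported here. Among overlapping gene models, Apoa2 overlaps Tomm40l and Serpinc1 overlaps Zbtb37, both on the opposite strand. Protein sequences were not used here.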

Additional observations from a re-analysis of the deposited data

How the results depend on the processing

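In the 2 comparisons with MSC-EV, the count of hepatocyte transcripts past the threshold depended on the fit more than the direction did. In MSC-EV against PBS (5), it was 1 without a filter on low values, 3 with a minimum of 5 TPM, 2 with a replicate block, 2 with depth as a covariate, 1 with the acinar split as a term and 0 without the 2 samples highest in acinar markers, and it ranged from 0 to 9 when each sample was left out. In MSC-EV against HEK-EV (12), it was 1 without a filter, 6 with a replicate block, 7 with depth as a covariate and 0 without the 2 samples highest in acinar markers, and it ranged from 0 to 12 when each sample was left out. Where a group kept 2 samples, its spread was taken from all groups. Fewer samples leave fewer degrees of freedom; the cause of the other changes was not tested. In HEK-EV against PBS it was the reverse: the count was 0 in all 19 alternatives run, while the median fold change turned positive in some of them. The median fold change stayed positive in MSC-EV against PBS and against HEK-EV in all 19. Same-numbered samples of different groups had correlations from -0.50 to 0.058 in their deviations, so the numbers were not taken as pairs. The acinar split with a minimum of 30 TPM and the removal of the highest pair were chosen after seeing the data. The planned minimum of 10 TPM was not run. It put all 9 samples on one side, as Cela1 alone was at 11.2 TPM or more in each. The depth in reads is unknown, which limits the genes near 1 TPM most.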

Other observations

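Genes outside the list also kept a near-constant ratio to Alb. Of the 13819 genes tested other than Alb, 39 had a CV of the ratio under 20%. Of these, 10 are among the 35 transcripts described above and 19 are in the lists of further secreted, acute-phase and metabolic genes. Kng1, kininogen, had the lowest CV of all at 5.27%, with a CV of 45.5% in TPM, and F2, prothrombin, had 10.3%. The other 10 were chosen by this limit after the data were seen: Agt, angiotensinogen, at 16.7%, Ugt2b34, a glucuronosyltransferase, at 16.3%, Ces1c, a carboxylesterase, at 18.6%, and C8a, a complement component, at 19.7%, with 1700037C18Rik, Gm8893, Irak1bp1, Fgfbp3, Pcbp4 and Tmem150a. Gm8893 shares 37.4% of the 50-base stretches of Serpina1a. These values share a library and its Alb level, so they are descriptions without a test.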
